A study of Arabidopsis with 12 samples.

Results

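The 51 loci described here encode WRKY transcription factors of *Arabidopsis thaliana*. They were taken by locus identifier from a list of family members, and all 51 were found among the 27371 genes of the deposited table. The list does not hold the whole family, and RefSeq names 21 further WRKY loci, so that counts and sums below stand for the 51 loci alone. The RNA-Seq compared WT (Col-0) with *wlim2a-1*, a CRISPR-Cas9 mutant of the actin-binding LIM protein WLIM2A. The mutant is represented by a single line, free of Cas9, with a 1-base insertion that shifts the reading frame. Seedlings of both genotypes, 14 days old, had grown on ½ MS agar and spent the night in liquid ½ MS before 1 h in 1 µM flg22, the immunogenic peptide of bacterial flagellin, or in water (mock). Each of the 4 combinations of genotype and treatment had 3 biological replicates, 12 samples in all, and values of a gene are listed for WT in mock, WT after flg22, the mutant in mock and the mutant after flg22, in that order. The deposited values are 1 FPKM (fragments per kilobase of transcript, scaled for sequencing depth) for each gene in each condition, after the authors had combined the replicates. How the scaling was done is not given for these values. No SD, test or interval can therefore accompany any value, and whether a difference exceeds the spread between replicates is unknown. Whole seedlings were sequenced, so fewer cells of a type and less RNA per cell cannot be told apart.

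WRKY proteins carry a DNA-binding domain named after its conserved peptide and bind the W box, a short DNA element with the core TTGAC found in many defense gene promoters. Perception of flg22 by the receptor FLS2 activates MAPK cascades, and several WRKY factors are direct kinase substrates or are transcribed within minutes of the stimulus. The family is divided into subgroup I, with a pair of WRKY domains, subgroups IIa to IIe, with a single domain and a shared zinc finger, and subgroup III, with another zinc finger. Some members promote immunity, others repress it, and further members act in senescence, phosphate supply, heat tolerance or development.

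Of the members, WRKY29 and WRKY40 were also among the genes for which the study designed qRT-PCR primers, which are shown because one of them lies on the conserved peptide itself. Capitals mark the codons of 6 of the 7 residues of WRKYGQK in the WRKY29 forward primer, found by translating the primer. The genes lie on chromosome 4 (*WRKY29*, AT4G23550) and chromosome 1 (*WRKY40*, AT1G80840).
WRKY29 forward: gCGTAAATACGGGCAGAAAc
WRKY29 reverse: ggtttgggttgggaagtttt
WRKY40 forward: gcgagttgaagaagatcca
WRKY40 reverse: tgtcacacatcaaggttagcatc

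The 51 loci together had a higher summed level after flg22 than in mock in both genotypes. The summed FPKM of the 51 loci went from 535 in mock to 1142 after flg22 in WT and from 575 to 1299 in *wlim2a-1*, a ratio of flg22 to mock of 2.13 in WT and 2.26 in *wlim2a-1*. At least 20 FPKM was reached by 6 members in mock and 16 after flg22 in WT, and by 10 and 18 in *wlim2a-1*. The member with the highest FPKM was *WRKY65* in WT mock, *WRKY33* in WT flg22 and *WRKY15* in both *wlim2a-1* conditions. Subgroup IId, whose members bind calmodulin, held 32.1% of the summed family FPKM in WT mock and between 29.0% and 31.6% in the other 3 conditions. Subgroup IIe held 27.2% in WT mock but 16.5% in *wlim2a-1* mock. Its sum was 146 and 95.1 FPKM there, of which *WRKY65* alone had 94.7 and 50.5 FPKM. Subgroup III, with 9 loci, held 4.22% in WT mock but 8.01% in *wlim2a-1* mock.

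**Figure D1:**
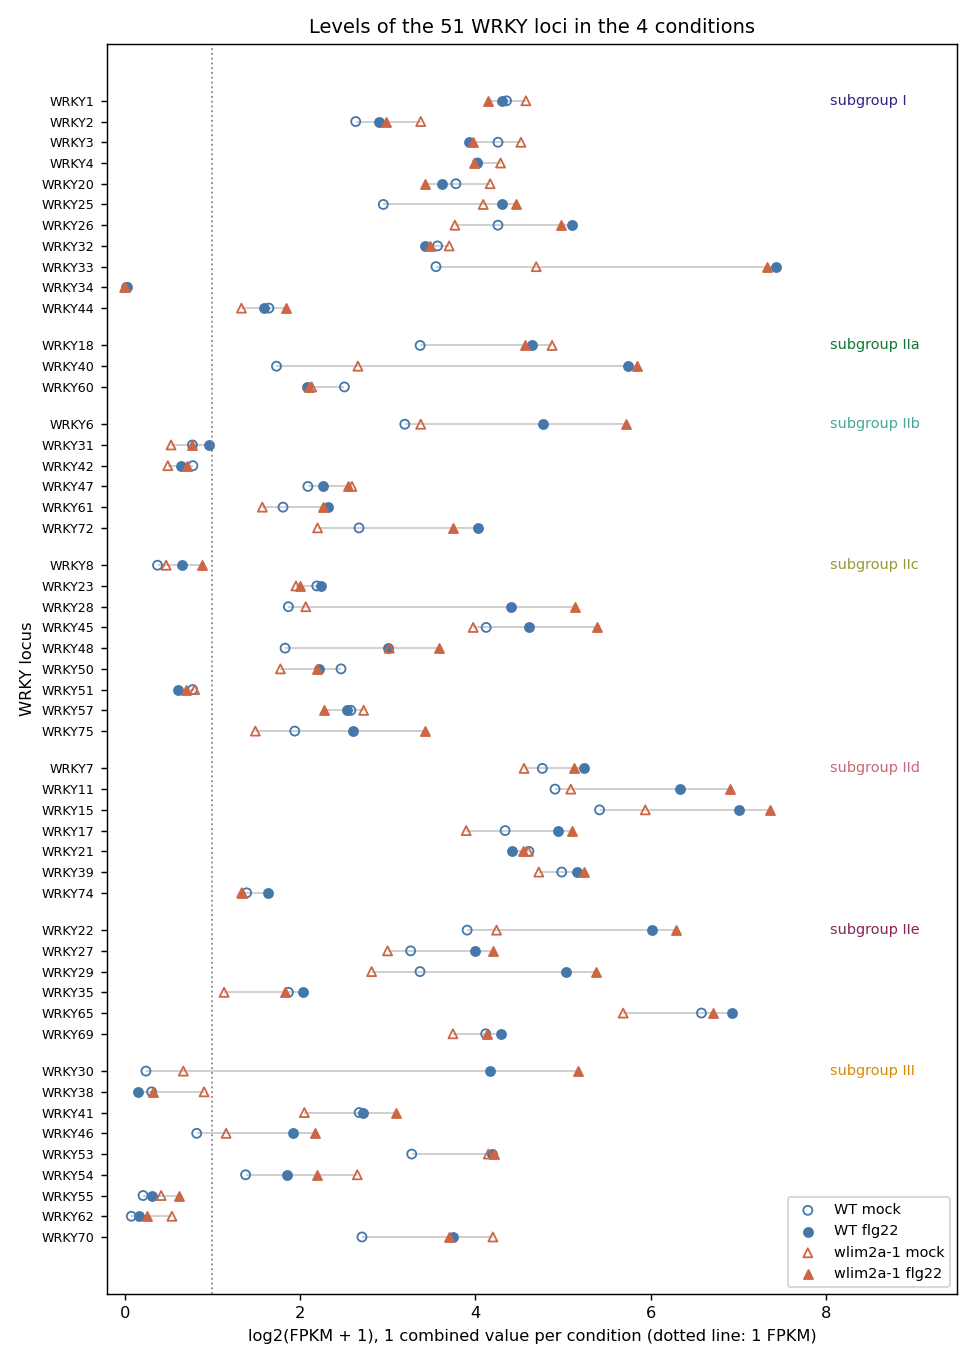
Level of each of the 51 WRKY loci as log2(FPKM + 1), grouped by subgroup, with 1 combined value for each of the 4 conditions and the dotted line at 1 FPKM. *WRKY33*, *WRKY40*, *WRKY28* and *WRKY30* have the widest gaps between mock and flg22 in both genotypes, and 8 loci lie left of the line in every condition.

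For the comparisons, genes with at least 1 FPKM in at least 1 condition were kept, 19323 genes and 43 of the 51 members, with a call of higher or lower for any gene whose FPKM + 1 changed at least 2-fold (a log2 difference of at least 1). The other 8 members, *WRKY8*, *WRKY31*, *WRKY34*, *WRKY38*, *WRKY42*, *WRKY51*, *WRKY55* and *WRKY62*, had at most 0.952 FPKM in any condition. *WRKY34*, which acts in pollen, was listed at 0 in both *wlim2a-1* conditions. An exact 0 in this table cannot be read as absence, because the leaf transcripts *RBCS1A* and *CAB1* were listed at 0 in both WT conditions. In *wlim2a-1* mock and flg22 they had 14401 and 11504 FPKM (*RBCS1A*) and 29857 and 24963 FPKM (*CAB1*), so these zeros go with the genotype. The leaf transcript *RBCS2B* had between 2213 and 3818 FPKM, the root transcript *PYK10* between 161 and 216 FPKM, and 3 transcripts of seed storage proteins at most 0.0532 FPKM. *WLIM2A* itself had 12.6, 11.6, 10.9 and 6.20 FPKM in the order given above. Its alleles carry small insertions, so this level does not check the genotype. In RefSeq, 11 members overlap a neighboring gene, among them *WRKY29*, *WRKY33*, *WRKY40*, *WRKY41* and *WRKY53*, and it is not given whether the counting used strand, so the neighbor's share in their FPKM was not tested.

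After flg22, many of the listed WRKY genes rose in both genotypes. Of the 21 loci that the list leaves out, 9 could be compared, of which 0 rose in either genotype and 1, *WRKY19*, fell in *wlim2a-1*. The 51 loci were chosen with earlier results of these data known, so the shares below describe the list and not the whole family. In WT, 15 of the 43 compared members rose (34.9%, against 4.47% of all genes compared) and 0 fell (0.471% of all genes). In *wlim2a-1*, 18 of 43 rose (41.9%, against 5.53%) and 0 fell (4.25%), or 3 on the ratio to reference transcripts given below, on which 18.3% of all genes fell. With no minimum FPKM the counts were 15 and 18 of 51, against 3.16% and 3.90% of 27371 genes. The median log2 fold change of the compared members was 0.49 in WT and 0.56 in *wlim2a-1*, beside −0.05 and −0.09 for all genes compared. A ratio to the reference transcripts *ACT2* and *UBQ10*, of which *UBQ10* itself went from 1008 to 1660 FPKM in WT, shifted the median of all genes to −0.42 in WT and −0.58 in the mutant and the counts of higher members to 8 (2.91% of all genes) and 10 (3.07%). On that scale the members' median lay 0.59 above that of all genes in WT and 0.62 above it in *wlim2a-1*.

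The same 11 members rose in both genotypes, *WRKY6*, *WRKY11*, *WRKY15*, *WRKY22*, *WRKY28*, *WRKY29*, *WRKY30*, *WRKY33*, *WRKY40*, *WRKY46* and *WRKY72*. A further 4 passed the threshold in WT but not in *wlim2a-1* (*WRKY18*, *WRKY25*, *WRKY48* and *WRKY70*), and 7 did so in *wlim2a-1* but not in WT (*WRKY17*, *WRKY26*, *WRKY27*, *WRKY41*, *WRKY45*, *WRKY65* and *WRKY75*). The members nearest to the threshold were *WRKY70* (log2 1.04) just inside and *WRKY53* (log2 0.91) just outside in WT, and *WRKY46* (log2 1.01) and *WRKY61* (log2 0.69) in *wlim2a-1*. Without that ratio, the fold change had the same sign in both genotypes for 36 of the 43. Across these 43 genes, which are not independent replicates, the log2 fold changes in the genotypes had a Pearson's r of 0.82 and a Spearman's rho of 0.72, given as a description. The 2 responses share no condition. The overlaps, signs and correlations were not computed for all genes compared, so they are not shown to be particular to the members.

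**Figure D2:**
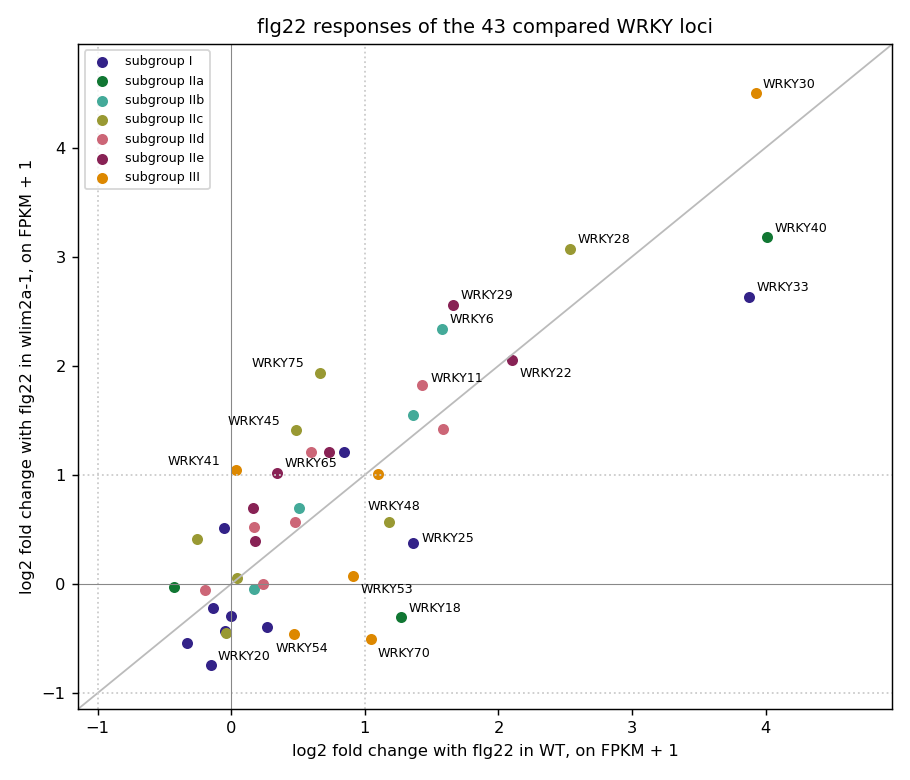
Log2 fold change with flg22 in WT (x axis) and in *wlim2a-1* (y axis), both on FPKM + 1, for the 43 compared members, with dotted lines at 2-fold and a line of equal response. *WRKY30*, *WRKY40* and *WRKY33* lie farthest to the upper right, *WRKY75*, *WRKY45* and *WRKY41* above the line, and *WRKY18* and *WRKY70* on opposite sides of 0 in the genotypes.

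Subgroup IIa holds *WRKY18*, *WRKY40* and *WRKY60*, whose proteins form complexes with each other and act together in immunity. *WRKY40* had 2.32 FPKM in mock and 52.5 after flg22 in WT, against 5.33 and 56.3 in *wlim2a-1*. Both flg22 values were far above both mock values, with a log2 fold change of 4.01 in WT, the largest of the family there with the pseudocount of 1, and 3.18 in *wlim2a-1*. *WRKY18* (AT4G31800) had 9.34 FPKM in mock and 24.0 after flg22 in WT, against 28.4 and 22.8 in *wlim2a-1*. WT mock was thus the only low condition of *WRKY18*, which rose in WT (log2 1.27) and had a log2 fold change of −0.30 in *wlim2a-1*. *WRKY60* (AT2G25000) stayed between 3.23 and 4.68 FPKM. The 3 partners therefore had unlike responses in these values.

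In subgroup I, the response to flg22 rested on a few members. *WRKY33* (AT2G38470), a MAPK substrate needed for camalexin synthesis and resistance to *Botrytis cinerea*, had 10.7 FPKM in mock and 171 after flg22 in WT, against 24.9 and 159 in *wlim2a-1*. It rose in both genotypes, with log2 fold changes of 3.88 and 2.63, and was the member with the largest gain in FPKM in each. Its relatives *WRKY25* and *WRKY26* act with it in heat tolerance. *WRKY25* (AT2G30250) had 6.73, 18.8, 16.0 and 21.0 FPKM in the same order of conditions and rose in WT (log2 1.36) but not past the threshold in *wlim2a-1* (log2 0.37). *WRKY26* (AT5G07100) had 18.1, 33.4, 12.6 and 30.4 FPKM, a log2 response of 0.85 in WT and of 1.21, past the threshold, in the mutant. The 2 relatives thus passed it in different genotypes. The remaining 7 compared members of subgroup I stayed within 2-fold in each of the 4 comparisons. Among them, *WRKY1* (AT2G04880, the ZAP1 protein) had 19.5, 18.8, 22.9 and 16.7 FPKM, and *WRKY3* (AT2G03340), which with *WRKY4* contributes to resistance to necrotrophs, had 18.1, 14.2, 21.9 and 14.7 FPKM. The subgroup median was −0.03 in WT and −0.26 in *wlim2a-1*, close to that of all genes in WT.

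In subgroup IIb, *WRKY6* (AT1G62300), a regulator of senescence and phosphate transport, had 8.16 FPKM in mock and 26.4 after flg22 in WT, against 9.39 and 51.6 in *wlim2a-1*. It rose in both genotypes (log2 fold changes of 1.58 and 2.34), and its close relatives *WRKY31* and *WRKY42* were below 1 FPKM throughout. *WRKY72* (AT5G15130), which contributes to basal immunity, had 5.38, 15.4, 3.60 and 12.4 FPKM in that order and also rose in both (log2 1.36 and 1.55). *WRKY61*, its nearest relative, ran from 1.97 to 3.98 FPKM, with responses of 0.51 and 0.69 on the log2 scale. In this subgroup 1 member of each of these pairs or triplets thus carried the rise past the threshold.

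Subgroup IIc contributed *WRKY28* (AT4G18170), an activator of the salicylic acid gene *ICS1*. It had 2.65 FPKM in mock and 20.2 after flg22 in WT, against 3.19 and 34.2 in *wlim2a-1*, and rose in both genotypes (log2 2.54 and 3.07). *WRKY8*, its relative, had at most 0.843 FPKM. *WRKY48* (AT5G49520), a repressor of basal resistance, had 2.56, 7.05, 7.10 and 11.0 FPKM, so that WT flg22 and *wlim2a-1* mock were alike, and rose in WT (log2 1.18) but not past the threshold in *wlim2a-1* (log2 0.56). *WRKY45* and *WRKY75* both act in phosphate supply. *WRKY45* (AT3G01970) had 16.4, 23.4, 14.7 and 40.8 FPKM (log2 fold changes of 0.49 and 1.41), and *WRKY75* (AT5G13080) had 2.84, 5.08, 1.81 and 9.76 FPKM (log2 0.66 and 1.94). For this pair the *wlim2a-1* flg22 value was the highest of the 4 and the *wlim2a-1* mock value the lowest. *WRKY23* (AT2G47260), *WRKY50* (AT5G26170) and *WRKY57* (AT1G69310) stayed between 2.43 and 5.62 FPKM.

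The calmodulin-binding subgroup IId was high in every condition except for *WRKY74* (AT5G28650), which had 1.62 FPKM in WT mock and 1.52 in mutant mock. *WRKY15* (AT2G23320), which acts in growth and osmotic stress, had 41.7 FPKM in mock and 127 after flg22 in WT, against 60.4 and 163 in *wlim2a-1*, and rose in both genotypes (log2 1.59 and 1.42). *WRKY11* and *WRKY17* are related repressors of basal resistance. *WRKY11* (AT4G31550) had 29.1, 79.8, 33.0 and 119 FPKM and rose in both (log2 1.43 and 1.82). *WRKY17* (AT2G24570) had 19.3, 29.7, 13.9 and 33.4 FPKM and passed the threshold in *wlim2a-1* (log2 1.21) but not in WT (log2 0.60). For both repressors the flg22 values exceeded the mock values in each genotype. *WRKY7* (AT4G24240; 26.2, 36.8, 22.5 and 33.9 FPKM), *WRKY21* (AT2G30590; 23.4, 20.3, 23.3 and 22.4 FPKM) and *WRKY39* (AT3G04670; 30.7, 34.7, 25.4 and 36.9 FPKM) stayed within 2-fold throughout.

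Subgroup IIe includes *WRKY22* and *WRKY29*, known as outputs of the flg22-activated MAPK cascade. *WRKY22* (AT4G01250) had 14.0 FPKM in mock and 63.5 after flg22 in WT, against 17.9 and 77.3 in *wlim2a-1*. *WRKY29*, the first gene of the primers above, had 9.33, 31.7, 6.05 and 40.5 FPKM. Both rose in both genotypes, *WRKY22* with log2 fold changes of 2.11 and 2.05 and *WRKY29* with 1.66 and 2.56. *WRKY27* (AT5G52830), known for its part in bacterial wilt symptoms, had 8.59, 14.9, 6.99 and 17.4 FPKM, a log2 response of 0.73 in WT and 1.21 in the mutant. *WRKY65* (AT1G29280) had 94.7, 121, 50.5 and 103 FPKM, a log2 response of 0.35 in WT and 1.02 in the mutant. Its value in *wlim2a-1* mock stood below the other 3. Each of the 6 members had a log2 response above 0 in both genotypes, and the subgroup median was 0.54 in WT and 1.11 in *wlim2a-1*. Of the 19323 genes compared, 7907 had a response above 0 in WT and 8108 in *wlim2a-1*. On the ratio to *ACT2* and *UBQ10*, the values of *WRKY35*, *WRKY65* and *WRKY69* in WT and of *WRKY69* in *wlim2a-1* were below 0.

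Subgroup III holds members tied to salicylic acid and senescence. *WRKY30* (AT5G24110) had 0.183 FPKM in mock and 17.0 after flg22 in WT, against 0.590 and 35.0 in *wlim2a-1*. It went from below 1 FPKM to well above 10 in both genotypes, with log2 fold changes of 3.93 and 4.50, the latter the largest of the family in *wlim2a-1*. Both depend on the pseudocount and were 5.92 and 5.67 with one of 0.1. *WRKY46* (AT2G46400), which acts with *WRKY53* and *WRKY70* in basal resistance, had 0.768, 2.78, 1.23 and 3.49 FPKM and rose in both (log2 1.10 and 1.01). *WRKY53* (AT4G23810), a regulator of senescence, had 8.68, 17.2, 16.7 and 17.6 FPKM, a log2 response of 0.91 in WT and 0.07 in the mutant. As with *WRKY18*, WT mock was its only low condition. *WRKY70* (AT3G56400), which balances salicylic and jasmonic acid defenses, had 5.53 FPKM in mock and 12.5 after flg22 in WT, against 17.4 and 12.0 in *wlim2a-1*, a log2 response of 1.04 in WT and −0.50 in the mutant. *WRKY54* (AT2G40750), its partner in restraining salicylic acid synthesis, had 1.60, 2.60, 5.29 and 3.58 FPKM, with log2 responses of 0.47 and −0.46. For both partners *wlim2a-1* mock was the highest condition. *WRKY41* (AT4G11070) had 5.39, 5.56, 3.14 and 7.53 FPKM and rose in *wlim2a-1* (log2 1.04, against 0.04 in WT).

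Without flg22, a few WRKY genes were higher in *wlim2a-1* than in WT. The 6 of 43 that were higher (14.0%, against 4.48% of all genes compared) were *WRKY18* (log2 difference 1.51), *WRKY70* (log2 1.49), *WRKY54* (log2 1.27), *WRKY48* (log2 1.19), *WRKY33* (log2 1.14) and *WRKY25* (log2 1.14), and 0 of 43 were lower (0.611% of all genes). Just outside lay *WRKY40* (log2 0.93) and *WRKY53* (log2 0.87), and the lowest value was that of *WRKY65* (log2 −0.89). The median of the members was 0.15 beside 0.01 for all genes compared. The count was 8 with a pseudocount of 0.1 (6.62% of all genes) and 8 on the ratio to *ACT2* and *UBQ10* (7.06%). With a pseudocount of 5, 2 members passed the threshold (2.04% of all genes), *WRKY18* and *WRKY70*, while *WRKY25* (log2 0.84), *WRKY33* (log2 0.93), *WRKY48* (log2 0.68) and *WRKY54* (log2 0.64) did not. By subgroup the median ran from 0.93 in IIa (3 members, from −0.37 to 1.51) and 0.65 in III to −0.46 in IIe. In IIe, 5 of 6 members had a value below 0, as did 9414 of the 19323 genes compared. The medians of IIb (log2 −0.03), IIc (log2 −0.15) and IId (log2 −0.06) changed sign on the ratio to *ACT2* and *UBQ10*.

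The same comparison differed in transcripts of the organelles. Of 83 chloroplast-encoded genes compared, 65 were higher and 5 lower in the mutant in mock, with a median log2 difference of 2.00, and the median of 58 mitochondria-encoded genes was 0.51. With flg22, the chloroplast-encoded median was −1.67 in *wlim2a-1*, where 59 of the 83 fell, against −0.29 in WT, where 12 fell. The root transcripts *PYK10* (log2 −0.42), *EXPA7* (log2 −0.60) and *COBL9* (log2 −0.44) also had lower values in the mutant in mock, within 2-fold. The part of these differences in the WRKY values, and in the flg22 responses built on the same mock condition, was not tested. With combined values, a single deviating replicate of *wlim2a-1* mock and a difference shared by all 3 cannot be told apart.

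**Figure D3:**
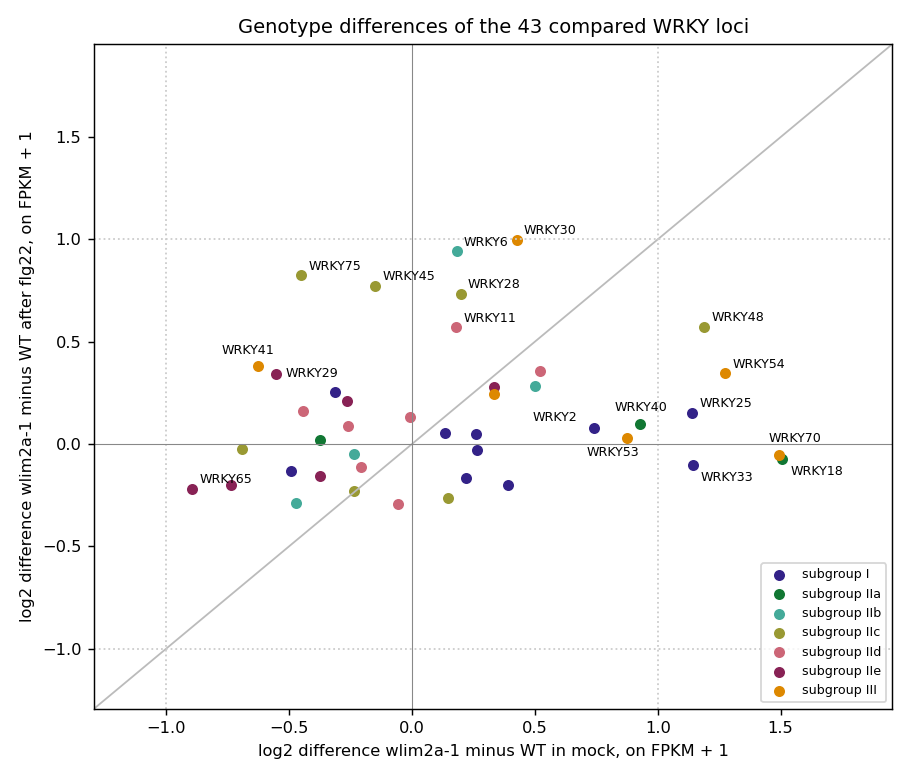
Log2 difference of *wlim2a-1* minus WT in mock (x axis) and after flg22 (y axis), both on FPKM + 1, for the 43 compared members, with dotted lines at 2-fold and a diagonal of equal differences. *WRKY18*, *WRKY70*, *WRKY54*, *WRKY48*, *WRKY33* and *WRKY25* lie right of the line at 1 in mock, no member lies above it after flg22, and *WRKY30* touches it from below.

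After flg22 the genotypes differed less, among all genes compared (4.48% higher in mock) as well as among the members. Of the 43 members, 0 were 2-fold higher in *wlim2a-1* (1.16% of all genes compared) and 0 were lower (0.352%), with a median of 0.08 beside −0.02 for all genes. At shares this low, 0 of 43 is not a result about the members. *WRKY30* had a log2 difference of 0.999431, just under the threshold, and passed it with a pseudocount of 0.1, after scaling to the upper quartile and on the ratio to *ACT2* and *UBQ10* (log2 1.04). The next values were those of *WRKY6* (log2 0.94), *WRKY75* (log2 0.82), *WRKY45* (log2 0.77) and *WRKY28* (AT4G18170; 0.74), and the lowest was that of *WRKY74* (log2 −0.29). The 6 members that were higher in *wlim2a-1* mock had differences between −0.10 (*WRKY33*) and 0.57 (*WRKY48*) after flg22.

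Seedlings of *wlim2a-1* without flg22 were also set beside WT seedlings with it. Each of the 6 members that were higher in *wlim2a-1* mock also had a higher FPKM in WT flg22 than in WT mock. Both differences are taken from WT mock, so a low value there would raise both, and their likeness is given as values only. How often the same held among all genes higher in *wlim2a-1* mock was not computed. The *wlim2a-1* mock level was 118% of the WT flg22 level for *WRKY18*, 140% for *WRKY70*, 101% for *WRKY48*, 97.4% for *WRKY53*, 85.3% for *WRKY25* and 203% for *WRKY54*. It was 14.6% for *WRKY33* and 10.1% for *WRKY40*. Between them lay other members that rose in WT, with 47.4% for *WRKY15*, 44.2% for *WRKY46*, 41.4% for *WRKY11*, 35.6% for *WRKY6*, 28.2% for *WRKY22*, 23.4% for *WRKY72*, 19.1% for *WRKY29* and 15.8% for *WRKY28*. The lowest was *WRKY30* with 3.47%. The levels thus form a range, and the genes plotted were picked after their values were seen. Of the 15 members that rose in WT, 4 (*WRKY18*, *WRKY25*, *WRKY48* and *WRKY70*) had a *wlim2a-1* mock level nearer to WT flg22 than to WT mock. The share among all genes that rose in WT was not computed, so this count is not shown to be particular to the members.

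**Figure D4:**
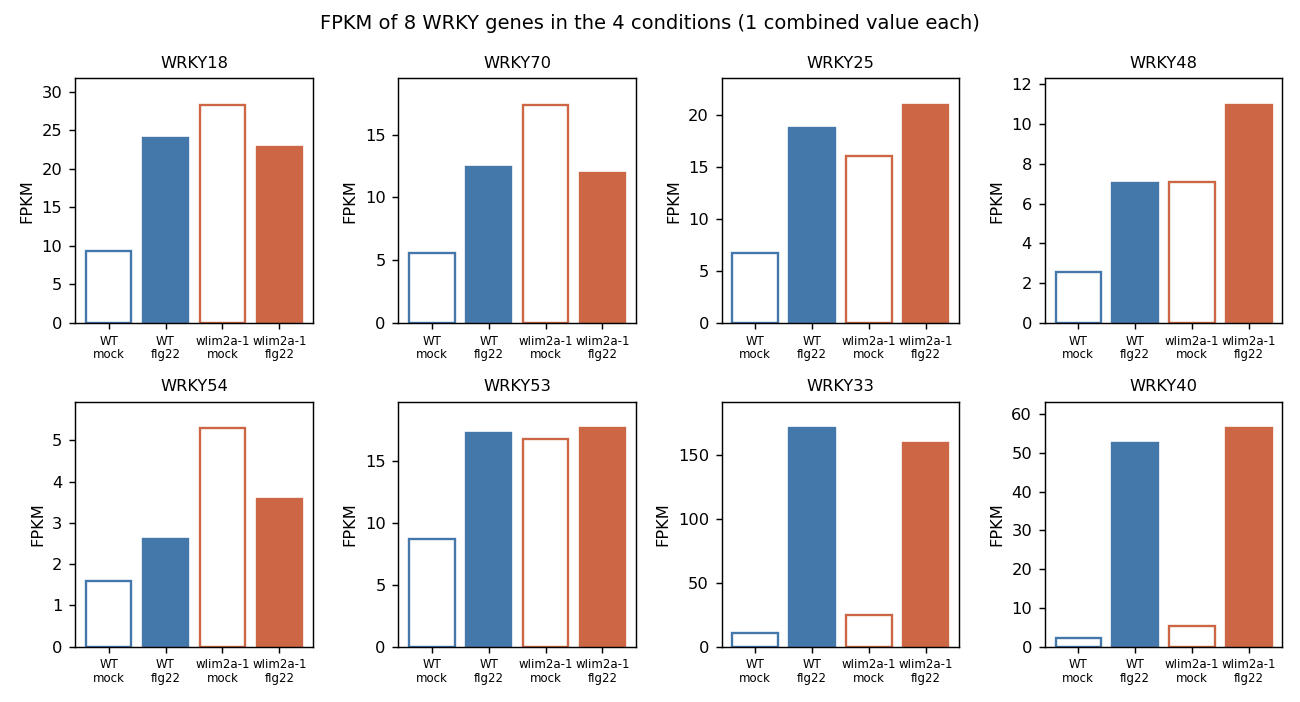
FPKM of 8 WRKY genes, 1 combined value per condition, each panel with its own axis from 0 and no error bars because the replicates were combined. *WRKY18*, *WRKY70*, *WRKY25*, *WRKY48*, *WRKY54* and *WRKY53* have WT mock as their lowest bar with *wlim2a-1* mock close to or above WT flg22, while for *WRKY33* and *WRKY40* both mock bars are far below both flg22 bars.

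The response to flg22 itself differed by at least 1 on the log2 scale between the genotypes for 5 of the 43 members. It was larger in *wlim2a-1* for 2 (1.46% of all genes compared), *WRKY75* (log2 1.27) and *WRKY41* (log2 1.00), and smaller for 3 (3.70% of all genes), *WRKY18* (log2 −1.58), *WRKY70* (log2 −1.55) and *WRKY33* (log2 −1.24). For *WRKY18*, *WRKY70* and *WRKY33* the log2 difference between the genotypes was more than 1 in mock and −0.07, −0.05 and −0.10 after flg22. For *WRKY75* the mock level was lower (log2 −0.45) and the flg22 level higher (log2 0.82) in *wlim2a-1*. Without replicates no such difference could be tested.

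Genes that work with WRKY factors were compared from lists written from general knowledge, with earlier results of these data known. Their counts are a description and not independent support for the WRKY values. VQ proteins bind WRKY factors and tune their activity. After flg22, 6 of the 9 listed rose in WT (4.47% of all genes compared) and 5 in *wlim2a-1* (5.53%). Their median log2 fold changes were 1.49 and 1.74. *MKS1*, which links MPK4 to WRKY33, had 28.7, 89.8, 22.4 and 85.9 FPKM in the order of conditions used above and rose in both genotypes (log2 1.61 and 1.90). *SIB1*, an activator of WRKY33, had 2.51, 17.0, 9.51 and 17.5 FPKM, rose in WT (log2 2.36), and was higher in the mutant in mock (log2 1.58). *JAV1*, a repressor of jasmonate defense, had 9.36, 28.1, 9.36 and 33.6 FPKM and rose in both (log2 1.49 and 1.74). Between the genotypes, 2 of the 9 were higher in *wlim2a-1* in mock (4.48% of all genes) and 1 after flg22 (1.16%). The latter, *VQ29* (log2 1.62), had low values, 0.0993, 1.46, 0.0999 and 6.54 FPKM.

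Of 7 kinases upstream, 2 rose with flg22 in WT (4.47% of all genes compared) and 2 in *wlim2a-1* (5.53%). In each genotype these were *MPK3* (25.8, 89.4, 30.7 and 79.0 FPKM) and *MKK4* (11.9, 51.3, 14.1 and 58.9 FPKM). Between the genotypes, 0 of the 7 differed in mock (4.48% of all genes higher and 0.611% lower) or after flg22 (1.16% and 0.352%). Of 16 genes known to be bound or controlled by WRKY factors, 15 could be compared. In WT 4 rose (4.47% of all genes) and 0 fell (0.471%) with flg22, and in *wlim2a-1* 5 rose (5.53%) and 1 fell (4.25%). The camalexin enzyme gene *PAD3*, a WRKY33 target, had 4.30, 8.81, 8.11 and 26.8 FPKM and rose in *wlim2a-1* (log2 1.61, against 0.89 in WT). *CYP71A12*, a neighbor and close copy of *CYP71A13*, with which it can share reads, had 0.569, 11.2, 2.79 and 33.0 FPKM and rose in both genotypes. The ethylene synthesis gene *ACS6* had 8.16, 26.1, 5.87 and 28.7 FPKM and also rose in both. In *wlim2a-1*, 3 of the 15 were higher than in WT in mock (4.48% of all genes), *CYP71A12*, *CYP71A13* and *PR1*. *CYP71A13* was near the floor in mock, with 0.0921 FPKM in WT and 2.03 FPKM in *wlim2a-1*, and the part of reads shared with *CYP71A12* was not tested. After flg22, 4 were higher (1.16%), *FRK1*, *PAD3*, *CYP71A12* and *PR1*. *FRK1* was near the floor there, with 0.942 FPKM in WT and 3.13 FPKM in *wlim2a-1*. The salicylic acid marker *PR1* fell in *wlim2a-1* with flg22, from 41.8 to 18.2 FPKM, and had at most 0.257 FPKM in WT.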

How the data were processed

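RNA-Seq of 12 samples, 3 in each of 4 conditions, was analyzed for 51 WRKY loci. The authors trimmed the reads with Trimmomatic, aligned them to TAIR10 with TopHat 2.1.1, assembled transcripts with Cufflinks and used Cuffdiff 2.2.1 with quartile normalization and limma. The deposited table gives every gene 1 FPKM per condition, with the replicates combined by the authors. Which program gave them, the annotation version and the use of strand in counting are not given in the sources used here. A stranded library kit is named in the study's methods and a service provider, with guaranteed 30000000 reads per sample, in the labels, 2 descriptions that were not reconciled, and the depth obtained is unknown, so no interval or detection limit was computed. Combining replicates hides their spread, and a single deviating replicate would move the value of its condition.

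A pseudocount of 1 was added before log2, which lessens the fold change of genes with low FPKM. Genes with at least 1 FPKM in at least 1 condition were compared and called at 2-fold, the fold threshold of the study's methods. No test was possible. Exact values of 0 were listed for 4249 to 4602 genes in a condition, and AT2G01021 alone held between 28.9% and 67.4% of the summed FPKM. The upper quartiles of the genes compared ran from 20.0 to 21.3 FPKM, and the values were used without further scaling. All 4 value columns of the table were mapped to a condition. Symbols came from RefSeq TAIR10.1, which held 26703 of the loci (97.6%) and all 51 members, 49 of them under the WRKY name. Subgroups, relatives and gene lists came from general knowledge, as did the names *VQ10* and *VQ12*, which RefSeq did not give.

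Values in all 4 conditions were given for members past 2-fold in any comparison whose higher condition had at least 5 FPKM, for members with at least 20 FPKM in any condition, and for *WRKY27*, *WRKY29* and *WRKY40*. Other members were given by counts and ranges, or by values where a subgroup or a pair of relatives turned on them. The members and lists were chosen with earlier results of these data known, and the percentages of WT flg22 levels were added after the values were seen. Alternatives were pseudocounts of 0.1 and 5, no minimum and a minimum of 5 FPKM, thresholds of 1.5-fold and 4-fold, scaling to a common upper quartile and a ratio to the geometric mean of *ACT2* and *UBQ10*. W boxes in promoters and protein identities of relatives were not analyzed here. The scripts, tested on simulated data, used Python 3.11.15, pandas 2.3.3, numpy 2.4.6 and matplotlib 3.10.9.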

Additional observations from a re-analysis of the deposited data

Results flagged for a closer look

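Members were flagged where the flg22 response had opposite signs in the genotypes and also differed by at least 1 on the log2 scale. These were *WRKY18* and *WRKY70*, both past the threshold in WT but not on the ratio to *ACT2* and *UBQ10* (log2 0.86 and 0.65). In WT, *WRKY70* also missed it with a pseudocount of 5 (log2 0.73) and with the upper quartile (log2 0.98). For *WRKY18* the response in *wlim2a-1* minus that in WT was −1.58, with 9.34 FPKM in WT mock as the only value below 20. For *WRKY70* it was −1.55, with 5.53 FPKM in WT mock and 17.4 FPKM in *wlim2a-1* mock. Neither difference was tested, since only 1 combined value per condition was analyzed.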

How the results depend on the processing

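No paired analysis was possible because the replicates had been combined, and for the same reason no replicate could be left out. Several of the 9 counts of members moved under the 8 alternatives, and a count has no direction that could reverse. Percentages in parentheses are the shares of all genes called under the same setting. Under the alternatives such shares were not computed for the counts of differing responses, which therefore cannot be read against all genes. At 4-fold, 5 members rose in WT (1.59%) and 7 in *wlim2a-1* (1.79%), 0 were higher in the mutant in mock (0.968%), and the response differed for 0. At 1.5-fold, 1 member fell with flg22 in *wlim2a-1* (14.3%), 4 were lower in *wlim2a-1* mock (4.59%), 5 were higher in *wlim2a-1* after flg22 (2.93%), and the response differed for 18. On the ratio to *ACT2* and *UBQ10*, 8 rose in WT (2.91%) and 10 in *wlim2a-1* (3.07%), 3 fell in *wlim2a-1* (18.3%), *WRKY3*, *WRKY20* and *WRKY70*, and 1, *WRKY30*, was higher in *wlim2a-1* after flg22 (1.17%). Scaling to the upper quartile also gave 1 after flg22 (1.17%). With a pseudocount of 0.1, 1 was lower in *wlim2a-1* mock (1.55%), 1 was higher after flg22 (1.97%) and the response differed for 8. With a pseudocount of 5, 2 were higher in *wlim2a-1* mock (2.04%) and the response differed for 3. Of 39 single calls of members, 12 were lost with a pseudocount of 5, 15 on the ratio, 27 at 4-fold and 1, *WRKY70* in WT (0.98), with the upper quartile. The thresholds and pseudocounts move calls by construction, and the cause of the shifts under the scalings was not tested. Without replicates or depth none of the differences can be set against an error.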

Other observations

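RefSeq names 21 further loci of the family that the list of 51 does not hold, and 9 of them had at least 1 FPKM in a condition. One of the 9 passed 2-fold, *WRKY19* (AT4G12020), with 3.48 FPKM in mock and 3.28 after flg22 in WT, against 9.57 and 4.08 in *wlim2a-1*. In mock it was higher in the mutant (log2 difference 1.24) and fell with flg22 in *wlim2a-1* (log2 −1.06). *RRS1*, an immune receptor with a WRKY domain, had 5.44, 7.99, 11.4 and 9.40 FPKM in that order, with a log2 difference of 0.95 between the genotypes in mock. *WRKY14*, of subgroup IIe, had 6.49, 6.53, 2.86 and 5.23 FPKM, with −0.95. As among the listed members, 0 of these 9 differed 2-fold between the genotypes after flg22 (1.16% of all genes higher and 0.352% lower). With flg22, 0 rose in WT (4.47%) or *wlim2a-1* (5.53%), shares too low to read much from 9 loci. *WRKY49* had 3.12 and 1.34 FPKM in WT mock and flg22, a log2 fold change of −0.81.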
